A study of Mus musculus with 6 samples.

Results

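The clock output factors described here are 7 genes, Dbp, Tef, Hlf, Nfil3, Ciart, Bhlhe40 and Bhlhe41, taken by symbol from the 13026 genes of the deposited table. All 7 were found once and all 7 passed the filter on low values, which left 12836 genes. The set was chosen by gene family and partly on the measured values of Dbp, whose levels separate the genotypes, so the genotype differences of the set are descriptions and not tests of it. RNA of whole kidney was measured in 6 libraries, 3 from wild type mice (LIGHT+/+) and 3 from mice lacking LIGHT (LIGHT-/-), which is TNFSF14, a TNF family cytokine. The genotype labels could not be checked on the LIGHT gene itself, which was not analysed here. All were adult males of C57BL/6J background. Every mouse had both kidneys made ischemic for 32 min and then reperfused for 24 h. How the LIGHT allele was made, the exact age and the clock time at which kidneys were taken are not given in the sources used here, and no unoperated kidney was analysed here. Levels are in FPKM, fragments scaled by transcript length and library total, as made by the authors.

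In the mammalian clock, CLOCK pairs with BMAL1 (the product of Arntl) and activates genes through a DNA element called the E-box, among them its own repressors of the Per and Cry families. Dbp, Tef and Hlf encode the PAR bZIP factors, activators with a proline and acidic amino acid rich domain beside a basic leucine zipper, which carry the rhythm to other genes through the D-box. Nfil3 encodes a bZIP repressor, also called E4BP4, that binds the same D-box. Bhlhe40 and Bhlhe41 encode the basic helix-loop-helix repressors DEC1 and DEC2, which bind E-boxes, and Ciart encodes CHRONO, a repressor of CLOCK and BMAL1 that belongs to neither the bZIP nor the bHLH family. In liver and kidney the PAR bZIP factors are known for driving genes of detoxification.

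The genes lie on 6 chromosomes of mm10. Dbp spans 45705088 to 45710203 on the plus strand of chromosome 7, and 539 of its exon bases overlap exons of Sphk2 on the opposite strand. Sphk2, which encodes a sphingosine kinase, stood between 8.28 and 8.71 FPKM in all 6 libraries. Tef spans 81802421 to 81826863 on chromosome 15, Hlf 90336536 to 90390895 on chromosome 11, Nfil3 52967209 to 52981073 on chromosome 13 and Ciart 95878503 to 95882251 on chromosome 3. Bhlhe40 (108660629 to 108666925) and Bhlhe41 (145858243 to 145865558) are both on chromosome 6. Exons of Tef, Bhlhe40 and Bhlhe41 overlap those of antisense or unclassified genes over 193, 118 and 1280 bases, and these neighbours were not analysed here. No source used here says if strand was used in counting, so reads in such overlaps cannot be assigned with certainty.

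The stretch before the transcription start differs between these genes in the clock-related motifs it holds. RefSeq promoter windows on GRCm38.p6 were matched for 6 of the 7 genes, with 2 starts for Tef, and the 250 bases before each start were searched on both strands. The motifs were the E-box CACGTG, the D-box in the forms TTATGTAA and TTACGTAA, and the cyclic AMP response element TGACGTCA. No match overlapped another. The stretches below are those of the gene that separates the genotypes, of the other PAR bZIP factors, of their opposing repressor and of the gene with most E-boxes. They run 5′ to 3′ on the strand of the gene, stop where the first GENCODE exon begins (which leaves out 159 bases for Dbp, 34 for Nfil3 and 23 for Ciart), and carry the matched motifs in capitals. The first Tef window begins inside an annotated exon and is not shown.
Dbp (chr7:45704997-45705087, plus strand): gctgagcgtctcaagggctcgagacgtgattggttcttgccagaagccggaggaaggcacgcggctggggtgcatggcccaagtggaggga
Tef second start (chr15:81811164-81811413, plus strand): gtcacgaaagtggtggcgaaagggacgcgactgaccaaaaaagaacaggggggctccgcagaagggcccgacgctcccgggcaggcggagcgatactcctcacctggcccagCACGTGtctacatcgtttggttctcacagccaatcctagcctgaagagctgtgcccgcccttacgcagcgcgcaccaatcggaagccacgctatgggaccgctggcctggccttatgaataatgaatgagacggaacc
Hlf (chr11:90390918-90391167, minus strand): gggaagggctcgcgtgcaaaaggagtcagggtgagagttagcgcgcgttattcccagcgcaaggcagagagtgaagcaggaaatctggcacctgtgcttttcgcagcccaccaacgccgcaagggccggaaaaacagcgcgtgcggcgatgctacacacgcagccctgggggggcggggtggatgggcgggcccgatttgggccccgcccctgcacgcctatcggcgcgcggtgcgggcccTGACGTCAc
Nfil3 (chr13:52981074-52981289, minus strand): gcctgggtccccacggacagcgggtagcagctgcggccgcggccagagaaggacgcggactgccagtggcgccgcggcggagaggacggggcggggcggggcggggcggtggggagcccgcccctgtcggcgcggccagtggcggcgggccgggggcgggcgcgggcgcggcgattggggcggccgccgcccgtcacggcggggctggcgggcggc
Ciart (chr3:95882252-95882478, minus strand): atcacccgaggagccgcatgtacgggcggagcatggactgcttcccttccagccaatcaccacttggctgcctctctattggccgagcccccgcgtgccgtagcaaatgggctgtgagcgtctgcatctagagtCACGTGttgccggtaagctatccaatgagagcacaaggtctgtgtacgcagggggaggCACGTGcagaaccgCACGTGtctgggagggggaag

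Ciart held 3 E-boxes, which end 111, 53 and 39 bases before its start. At least 3 E-boxes were found in 20 of the 32851 windows of all genes, or 0.0609%. Both Tef starts held 1 E-box each, at 127 to 122 and 138 to 133 bases before the start, and Bhlhe41 held 1 at 153 to 148 bases. In all 4 of the 7 windows held an E-box, against 6.02% of all windows. The Hlf window held no E-box but had the cyclic AMP response element 9 to 2 bases before its start, a motif in 1.55% of all windows. Neither Dbp nor Nfil3 had any of these motifs in its window, and no window of the set had the D-box, which 0.931% of all windows hold. The Nfil3 window was 81.6% G and C, the highest of the 7, where the others had 60.4 to 73.6%. A match of letters is a description and does not show that a factor binds there.

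Across these genes the levels in wild type kidney spanned from about 38 FPKM to below 1. Bhlhe40 averaged 38.0 ± 4.68 FPKM in wild type (SD, n = 3), above 89.0% of the genes kept. Tef averaged 15.4 ± 3.32 FPKM and Dbp 8.51 ± 0.507. Hlf and Nfil3 were level with each other at 5.09 ± 1.15 and 5.07 ± 1.34 FPKM. Bhlhe41 at 0.896 ± 0.184 FPKM and Ciart at 0.648 ± 0.522 lay near the lower limit of the table, above 7.36 and 3.55% of the genes kept. In knockout kidney the order of the means was the same down to Nfil3, with Ciart then above Bhlhe41. Neighbours in this order were compared within libraries by a two-sided exact permutation test that flips the sign of each of the 6 log2 ratios, over 6 pairs. Dbp was above Hlf and Nfil3 above Bhlhe41 in 6 of 6 libraries, each with an exact p of 0.03125, the smallest this test can give. After adjustment over the 6 pairs no neighbours differed at 0.05, with an adjusted exact permutation p of 0.0938 for those pairs, for Bhlhe40 over Tef and for Tef over Dbp. Hlf against Nfil3 (adjusted exact p = 0.263) and Bhlhe41 against Ciart (adjusted exact p = 0.469) changed places in 2 and 3 of the 6 libraries, and Bhlhe40 against Tef and Tef against Dbp in 1 library each. These ratios between genes depend on the transcript lengths used for FPKM.

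**Figure D1:**
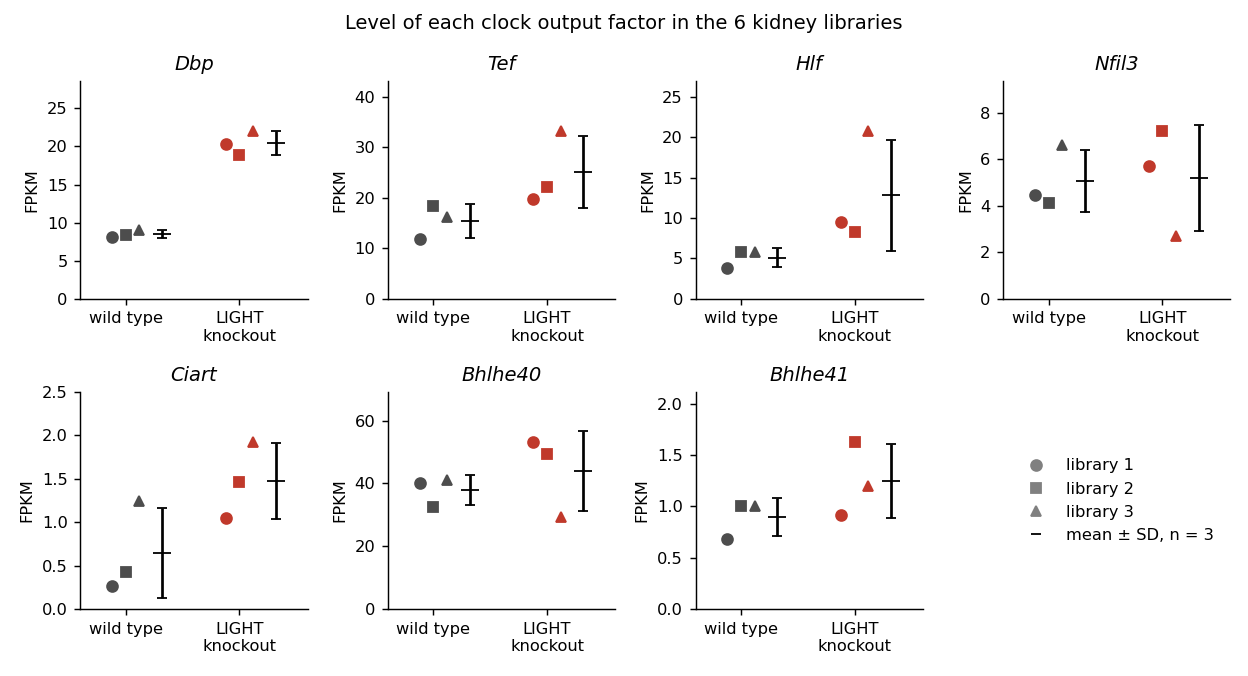
FPKM of each clock output factor in the 6 libraries, with each panel on its own axis from 0, grey points for wild type, red points for LIGHT knockout, marker shapes for the library number and black bars for mean ± SD (n = 3). Dbp forms 2 tight groups, 8.11 to 9.08 and 18.9 to 22.0 FPKM, while Nfil3 and Bhlhe40 have their lowest value in knockout library 3.

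Among the PAR bZIP activators, Dbp was the gene with the cleanest split. Wild type kidneys had 8.11, 8.36 and 9.08 FPKM of it, and knockout kidneys had 20.4, 18.9 and 22.0. No values overlapped, and the lowest knockout library was above the highest wild type library by more than the whole range of either group. The ratio of the means was 2.40 and the log2 fold change, on the scale log2(FPKM + 1), was 1.17 ± 0.10 (SE). The spread within a genotype was small, with a coefficient of variation of 5.95% in wild type and 7.52% in knockout. Dbp was the 1 gene of the 7 past a limma adjusted p of 0.05, the value that partly chose the set, and 15 of all 12836 genes, or 0.117%, passed it. That call held without knockout library 3 and ended when any 1 of the other 5 libraries was left out, while the log2 fold change stayed between 1.12 and 1.22.

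Tef, which is close to Dbp in its protein family, stood at 11.8, 18.3 and 16.2 FPKM in wild type and at 19.8, 22.1 and 33.2 in knockout. The groups did not overlap, but the gap between wild type library 2 and knockout library 1 was small beside the range within each genotype. Its log2 fold change was 0.65 ± 0.23 (SE), with a 95% interval of 0.10 to 1.20. Leaving out 1 library gave 0.44 to 0.80, the lowest without knockout library 3.

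Hlf had the widest knockout spread of the PAR bZIP factors. It stood at 3.76, 5.73 and 5.77 FPKM in wild type and at 9.54, 8.22 and 20.8 in knockout. All knockout libraries were above all wild type libraries, and knockout library 3 was more than 10 FPKM above the next. The log2 fold change was 1.10 ± 0.33 (SE; 95% interval 0.30 to 1.89), and leaving out 1 library gave 0.71 to 1.33. The lowest was without knockout library 3, where the ratio of the means went from 2.52 to 1.75. Within knockout the coefficient of variation of Hlf was 53.7%, against 28.5% for Tef.

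The 3 PAR bZIP genes were thus the members whose genotypes did not overlap, all higher in the knockout, and 7.76% of all genes tested had that pattern. Dbp partly chose the set by this pattern, so its place in that count was given in advance. None of the 6 genes other than Dbp passed over all genes, with limma adjusted p between 0.592 and 0.987. The unadjusted 95% intervals of Tef, Hlf and Ciart lay above 0, and those of Nfil3, Bhlhe40 and Bhlhe41 included it.

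**Figure D2:**
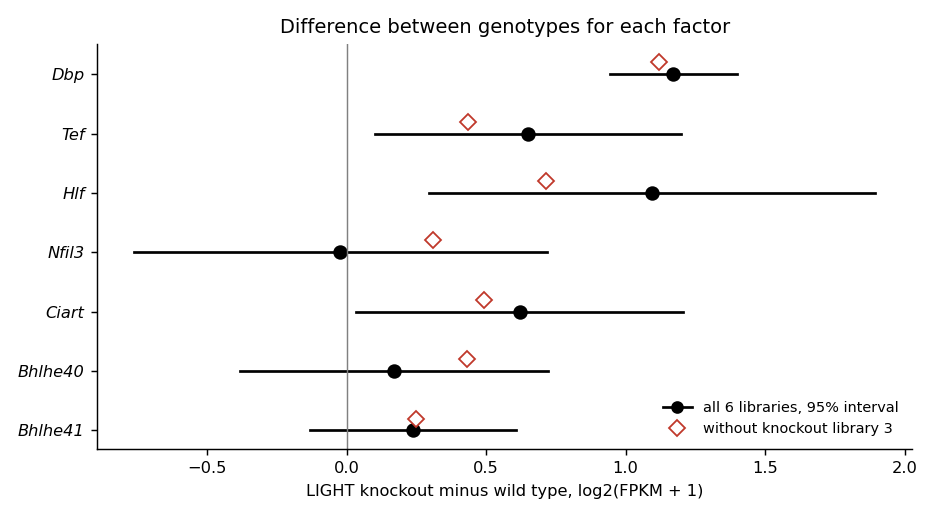
Difference between LIGHT knockout and wild type for each factor on the log2(FPKM + 1) scale, with black points and lines for the estimate from 6 libraries and its unadjusted 95% interval, and open red diamonds for the estimate without knockout library 3. When that library was left out, Dbp moved from 1.17 to 1.12 and Nfil3 from -0.02 to 0.31.

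The makeup of the PAR bZIP sum was not the same in every library. Dbp held 34.2, 25.8 and 29.3% of the summed FPKM of Dbp, Tef and Hlf in wild type and 41.0, 38.4 and 29.0% in knockout. In knockout libraries 1 and 2 the share of Dbp was above every wild type share, while in knockout library 3 it lay among them. Tef held between 49.9 and 56.6% in wild type and between 39.8 and 44.9% in knockout, with no overlap. The mean FPKM of Tef itself was higher in knockout, at 25.0 against 15.4. Shares depend on each other, and the sum includes Dbp, which helped to choose the set. The lower share is thus no separate genotype difference of Tef. Hlf held 15.9 to 18.6% in wild type, and its share of 27.3% in knockout library 3 was the highest of the 6.

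**Figure D3:**
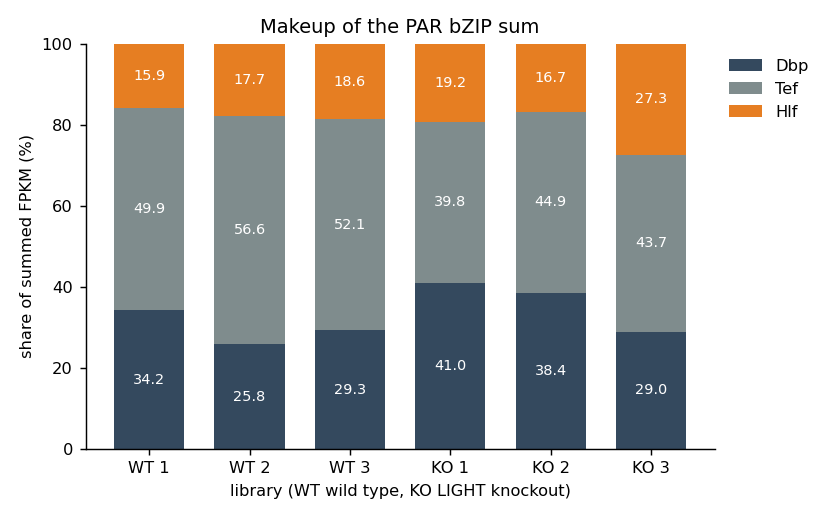
Share of Dbp, Tef and Hlf in their summed FPKM in each library, as stacked bars from 0 to 100%, with WT for wild type and KO for LIGHT knockout. Knockout libraries 1 and 2 carry the largest Dbp shares, 41.0 and 38.4%, and knockout library 3 the largest Hlf share, 27.3%.

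Nfil3, the repressor that competes with these activators for the D-box, did not separate the genotypes. It stood at 4.46, 4.14 and 6.60 FPKM in wild type and at 5.69, 7.21 and 2.71 in knockout. Both the highest and the lowest of the 6 values were knockout libraries. The log2 fold change was -0.02 ± 0.31 (SE; 95% interval -0.76 to 0.72), so a change of up to about 0.7 in either direction lies within the interval. It turned to 0.31 without knockout library 3 and to 0.15 without wild type library 3.

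The activators set against Nfil3 within each library gave a broader picture of the D-box factors. Summed, Dbp, Tef and Hlf came to 23.7, 32.4 and 31.0 FPKM in wild type and to 49.7, 49.3 and 75.9 in knockout. The sum divided by Nfil3 was 5.31, 7.84 and 4.70 in wild type and 8.74, 6.84 and 28.0 in knockout. Wild type library 2 was thus above knockout library 2, and knockout library 3 stood far above all others. As the mean log2(FPKM + 1) of the activators minus that of Nfil3, the balance had a wild type mean of 0.71 ± 0.31 and a knockout mean of 1.70 ± 0.96 (SD, n = 3 each). The difference was 0.99, and it was 0.45 without knockout library 3 and 0.89 with Tef and Hlf alone. No test was made of this score, since Dbp helped to choose the set.

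**Figure D4:**
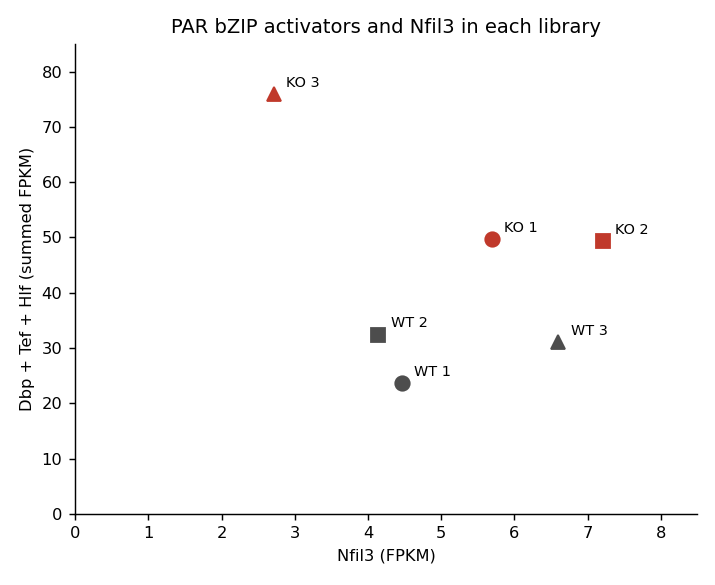
Summed FPKM of Dbp, Tef and Hlf on the vertical axis against Nfil3 FPKM on the horizontal axis, 1 point per library, grey for wild type (WT) and red for LIGHT knockout (KO). The knockout points lie at sums of 49.3 to 75.9 above wild type sums of 23.7 to 32.4, while along the Nfil3 axis the genotypes are mixed.

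Of the E-box repressors, Bhlhe40 had the highest mean level of the set in both genotypes. Bhlhe40, which is also known as a hypoxia-inducible gene, stood at 40.2, 32.6 and 41.2 FPKM in wild type and at 53.2, 49.4 and 29.4 in knockout. Knockout libraries 1 and 2 were above every wild type library, and knockout library 3 was below every one. The log2 fold change was 0.17 ± 0.23 (SE; 95% interval -0.38 to 0.72). Leaving out 1 library moved it by more than 1.5 times in either direction, to 0.43 without knockout library 3 and to 0.013 without knockout library 1, 0.065 without knockout library 2 and 0.066 without wild type library 2.

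Bhlhe41 stood at 0.684, 1.00 and 1.00 FPKM in wild type and at 0.917, 1.63 and 1.20 in knockout. Knockout library 1 lay within the wild type range and the other knockout libraries lay above it. The log2 fold change was 0.24 ± 0.15 (SE; 95% interval -0.13 to 0.61), and it was 0.12 without knockout library 2 and 0.15 without wild type library 1. At these levels the added 1 FPKM shrinks a change, and with 0.1 FPKM added in its place the value was 0.42. Bhlhe40 exceeded Bhlhe41 by between 24.5 and 58.8 times in every library.

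Ciart stood at 0.267, 0.433 and 1.24 FPKM in wild type and at 1.05, 1.46 and 1.93 in knockout. Wild type library 3 was above knockout library 1, so the genotypes overlapped at that point. The ratio of the means was 2.29. The log2 fold change was 0.62 ± 0.24 (SE; 95% interval 0.04 to 1.21) and 1.27 with 0.1 FPKM added. Leaving out 1 library gave 0.45 to 0.87, and no read counts are at hand to say how precise values this low are.

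Libraries of the same genotype also differed in the levels of the set. Wild type library 1 held the lowest value of 5 of the 7 genes, Dbp, Tef, Hlf, Ciart and Bhlhe41. Knockout library 3 held the highest value of Dbp, Tef, Hlf and Ciart and the lowest of Nfil3 and Bhlhe40. The same counts were not made over all genes, so they do not mark the set out. For Dbp, Tef and Hlf the lowest library is a wild type one in any case, since their genotypes do not overlap. Over all genes kept, knockout library 3 had correlations of 0.934 to 0.956 with the other libraries, where those others had 0.976 to 0.989 among themselves. Marker levels moved with it. The 8 tubule markers, all present, summed to 2240 FPKM there and to 977 to 1284 in the other 5, the 5 neutrophil markers to 20.1 against 43.7 to 91.1, and the 4 adipocyte markers to 62.3 against 12.8 to 21.3. Macrophage, podocyte and endothelial marker sums of that library lay within the range of the others, and its macrophage sum was 139 FPKM. In whole tissue, fewer cells of a type and less RNA per cell cannot be told apart, and the part of these markers in the values of Hlf, Tef, Nfil3 and Bhlhe40 was not tested.

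Sums of podocyte markers, of T and NK cell markers and of B and plasma cell markers did not overlap between the genotypes. Among all single genes, 7.76% were higher and 8.80% lower in the knockout without overlap. The 3 podocyte markers summed to 86.2 to 102 FPKM in wild type and to 76.7 to 79.1 in knockout. Of 6 T and NK cell markers, Cd3g and Nkg7 were in the table, and Cd3e, Cd8a, Ncr1 and Klrb1c were not analysed here. Cd3g and Nkg7 summed to 0.0840 to 0.213 FPKM in wild type and 0.501 to 1.89 in knockout. The table appears to leave out genes that are low in both groups. The wild type sum lay below that limit, so both genes could be kept only through their knockout means. The direction of their difference would thus be fixed by this selection, and their lack of overlap is no separate finding. Of 5 B and plasma cell markers, Jchain and Mzb1 summed to 0.856 to 1.79 and to 8.35 to 9.18 FPKM, and the other 3 were not analysed here. Their part in the Dbp difference was not tested. Of 4 adrenal markers only Star was in the table, at 0.447 to 1.63 FPKM, and of 3 skeletal muscle markers none was.

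The core clock genes that feed these outputs were described from a list of 16, of which 15 were tested. None passed over all genes by limma (6 had an unadjusted p under 0.05). The list had 9 genes higher and 6 lower in the knockout, with a median log2 fold change of 0.12 against -0.01 over all genes. Their genotypes did not overlap for 5 genes that were higher, against 7.76% of all genes, and for 1 that was lower, against 8.80%. Per2, a repressor of CLOCK and BMAL1, stood at 3.55, 5.53 and 5.77 FPKM in wild type and at 9.35, 9.08 and 12.2 in knockout. Per3, Nr1d1 and Nr1d2 were also higher without overlap, Nr1d1 and Nr1d2 encoding the REV-ERB repressors. Their log2 fold changes were 0.51 for Per3, 0.42 for Nr1d1 and 0.34 for Nr1d2, and that of Per3 was 0.30 without knockout library 3.

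Values were lower in the knockout for 2 activators of the loop. Npas2, a partner of BMAL1 in place of CLOCK, stood at 1.79, 1.01 and 1.34 FPKM in wild type and at 0.972, 0.834 and 0.503 in knockout, without overlap but with a narrow gap. Arntl had a wild type mean of 1.40 ± 0.184 FPKM and a knockout mean of 1.03 ± 0.196 (SD, n = 3 each), and 1 knockout library was above 1 wild type library. Clock, Cry1 and Rora had log2 fold changes of 0.12, -0.004 and 0.04. Per1, which shares the E-box input of Per2, averaged 5.40 ± 1.84 and 5.92 ± 1.33 FPKM. Of the whole list, the median was 0.09 without knockout library 3, with 11 of 15 genes higher.

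**Figure D5:**
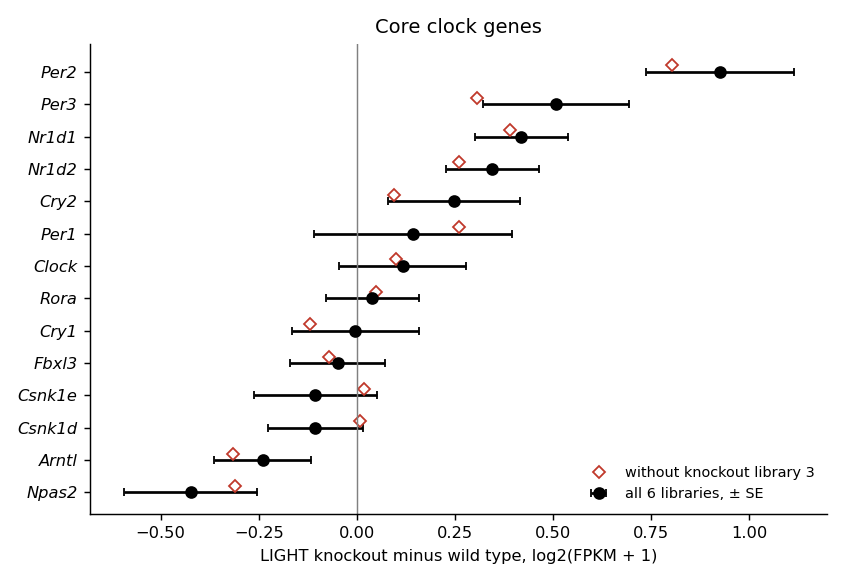
Difference between LIGHT knockout and wild type for 14 of the 15 core clock genes tested, on the log2(FPKM + 1) scale, with black points and bars for the estimate ± SE from 6 libraries and open red diamonds for the estimate without knockout library 3. Of those plotted, Per2 is highest at 0.92 and Npas2 lowest at -0.42.

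Genes known as targets of PAR bZIP factors, or as rhythmic in kidney or liver, were about evenly split. Of 20 listed, 19 were tested, 9 were higher and 10 lower in the knockout, and none passed over all genes by limma (0 also had an unadjusted p under 0.05). Their median log2 fold change was -0.04, against -0.01 over all genes, and 0.013 without knockout library 3. Ppara, the nuclear receptor of fatty acid catabolism, stood at 10.6, 16.4 and 10.2 FPKM in wild type and at 16.0, 16.2 and 17.2 in knockout. Usp2, a deubiquitinase with a strong daily rhythm, averaged 9.17 ± 2.67 and 15.2 ± 6.21 FPKM, and Avpr2, the vasopressin receptor of the collecting duct, 1.95 ± 0.485 and 4.34 ± 3.05 (SD, n = 3 each). Usp2 and Avpr2 were highest in knockout library 3, at 22.0 and 7.86 FPKM. Avpr2 was the 1 gene of the list without overlap, higher by a narrow gap, a pattern of 7.76% of all genes. Por and Alas1, detoxification and heme synthesis genes among the known targets, averaged 63.8 ± 5.38 and 58.5 ± 5.26 FPKM and 55.7 ± 5.74 and 46.6 ± 12.6.

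Relatives of the set by fold were mixed. Of 12 C/EBP and related bZIP factors 6 were higher and 6 lower, with a median of -0.05 and of 0.07 without knockout library 3, and none passed over all genes by limma (2 had an unadjusted p under 0.05). Cebpa, the C/EBP factor alpha, went from a wild type mean of 8.79 ± 0.700 FPKM to a knockout mean of 14.7 ± 3.06 (SD, n = 3 each) without overlap. Atf5 averaged 27.1 ± 1.70 and 20.6 ± 2.15 without overlap, and Ddit3 9.37 ± 1.16 and 11.4 ± 1.93. In that list 2 genes were higher and 1 lower without overlap, against 7.76 and 8.80% of all genes. Of the 7 helix-loop-helix repressors related to Bhlhe40, 3 were tested, 2 were higher and 1 lower, with a median of 0.14, and none passed over all genes by limma (1 had an unadjusted p under 0.05). Hes6 averaged 16.1 ± 1.05 and 18.9 ± 1.08 FPKM, Heyl 1.68 ± 0.0756 and 1.96 ± 0.0323, and Hes1 16.2 ± 1.57 and 14.8 ± 2.98. Hes6 and Heyl were higher without overlap, a pattern of 7.76% of all genes, and Hes1 overlapped.

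Glucocorticoid and hypoxia are 2 known inputs to clock genes, and their lists were split. Of 11 glucocorticoid-responsive genes 6 were higher and 5 lower, with a median of 0.09, and -0.08 without knockout library 3. Klf9 averaged 31.0 ± 1.84 and 39.0 ± 3.84 FPKM, Hsd11b1, which regenerates active glucocorticoid, 23.5 ± 1.15 and 18.4 ± 1.79, and Fkbp5 22.2 ± 4.30 and 17.9 ± 1.06 (SD, n = 3 each). Of 12 hypoxia-inducible genes tested 7 were higher and 5 lower, with a median of 0.04. Vegfa averaged 21.9 ± 1.67 and 30.0 ± 6.12 FPKM, Bnip3 45.1 ± 5.19 and 62.5 ± 13.2, and Adm 13.6 ± 2.76 and 9.04 ± 4.45. None of either list passed over all genes by limma (2 of each had an unadjusted p under 0.05). Klf9 and Vegfa were higher and Hsd11b1 lower without overlap, and the other genes of both lists overlapped. Over all genes these patterns held for 7.76 and 8.80%.

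For each of the 7 genes the 3 genes most like it were taken by Pearson correlation of log2(FPKM + 1) over the 6 libraries, among 11424 named genes. The 6 libraries are shared by all these genes, and the correlations are a description that carries no test. As the best 3 of 11424 genes over only 6 libraries, the matches are high by selection and show no link in function. Nearest to Dbp were Leng1 (r = 0.991), Taf7 (0.990) and Wdfy1 (0.988). Leng1 went only from 7.62 to 7.78 FPKM in wild type to 8.42 to 8.59 in knockout, whereas Wdfy1, an endosomal adaptor, went from 4.00 to 4.40 to 13.0 to 14.8, so likeness here is of shape and not of size. Nearest to Tef were Itch, Gata2 and Olfm3 (0.992 to 0.997), and to Hlf Frrs1, Neu2 and Ganab (0.986 to 0.991). Nfil3 was matched by Sap30bp, Msantd2 and Rhob (0.997 each), and Rhob, a small GTPase, stood at 38.8 FPKM in knockout library 3 and at 55.0 to 86.5 elsewhere. Nearest to Bhlhe40 were Gpc3, Cxcl1 and Tonsl (0.980 to 0.987). Cxcl1, a neutrophil chemokine, stood at 10.4, 6.43 and 13.7 FPKM in wild type and at 21.4, 23.7 and 4.31 in knockout, with its lowest value, like that of Bhlhe40, in knockout library 3. Ciart was matched by Brd1, Fbxo42 and Tmem14a (0.980 to 0.988). Bhlhe41 was matched by Rab2a, Clk2 and Cipc (0.993 to 0.996), Cipc encoding a protein that binds CLOCK.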

How the data were processed

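The deposited values are FPKM per gene and library, computed by the authors. Without versions, the submitters' processing notes list HISAT2, StringTie, FastQC and mm10. Aligner settings, annotation and use of strand are not given in the sources used here. All 6 single-library files held the same values as the table of all libraries. Depth cannot be read from FPKM, so count models and counting intervals were left out. The table appears to leave out low genes, since in each row the higher group mean was at least 0.500 FPKM.

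Groups and library numbers came from the sample titles, which name no separate mice. The p-values therefore measure only the spread among these samples, which may be technical. Genes averaging 0.5 FPKM or more were fitted as log2(FPKM + 1) in limma 3.58.1 (R 4.3.3) with a mean-variance trend, and p-values were adjusted by Benjamini-Hochberg over all 12836 genes. The method was tested on simulated data, drawn with equal spread in all 6 libraries. That setting holds no outlying library such as knockout library 3, so it cannot say how that library affects the calls. Gene positions are from GENCODE M21, on the assembly of mm10, and sequences from RefSeq on GRCm38.p6. All 7 genes were named, with the 3 most like each by correlation among genes of at least 1 FPKM that are no predicted models, and up to 3 genes of smallest p per list. Core clock genes and marker sums are given beside them, and Por and Alas1 were added after their values were seen. The members and lists were chosen with earlier results of these data known. Values of 1 core clock gene are not reported here, though it is counted in its list.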

Additional observations from a re-analysis of the deposited data

How the results depend on the processing

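The 15 calls over all genes were 12 to 16 under other pseudocounts, filters and scalings or without the variance trend, 52 with library weights and 0 to 11 when 1 library was left out. Limma made 0 calls on leaving out wild type library 1 (883 genes at an unadjusted p under 0.05), wild type library 3 (563) or knockout library 2 (875). Same-numbered libraries are not said to be paired, and their deviations from the group means correlated at 0.15, -0.13 and -0.02. With the replicate block there were 0 calls (884 genes at an unadjusted p under 0.05), and Dbp kept its log2 fold change of 1.17 with a limma adjusted p of 0.175. For Dbp, leaving out 1 library gave 1.12 to 1.22 and adjusted p of 0.0258 to 0.121. No other alternative ended its call. Nfil3 changed sign with library weights (0.47), and leaving out 1 library gave -0.26 to 0.31. Without knockout library 3, an alternative chosen after seeing the data for the lists, the medians of 3 lists changed sign, to 0.013 for PAR bZIP targets, 0.0713 for C/EBP and related factors and -0.0765 for glucocorticoid-responsive genes. The PAR bZIP balance kept its sign in all 11 alternatives, between 0.45 and 1.35. The replicate block leaves a difference of group means unchanged by construction. Only the alternative with Tef and Hlf alone leaves out Dbp, which helped to choose the set, so the kept sign is weak support. The other 5 genes kept their sign, and none was called, in any alternative run. Ciart and Bhlhe41 were outside the filter at a mean of 2 FPKM. The unknown depth limits what can be said of these 2 genes most.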
